A study of Bos taurus with 4 samples.

Results

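Slow muscle fibre nuclei were chosen by measured values, the UMIs of fibre-type genes in each nucleus of the 2 subcutaneous fat libraries. A nucleus with at least 200 detected genes was scored by the summed UMIs (unique molecular identifiers, which mark each captured RNA molecule) of 8 slow-fibre genes, MYH7, TNNI1, TNNT1, TNNC1, MYL2, MYL3, MYL6B and TPM3, called S. It was also scored by those of 7 fast-fibre genes, MYH1, TNNT3, TNNI2, TNNC2, MYLPF, MYBPC2 and ATP2A1, called F. Nuclei with S+F of at least 30 UMIs were kept, and in each library the 5% with the highest slow share, S/(S+F), were the slow nuclei. They numbered 302, with 10 in animal 1 and 292 in animal 2, out of 6031 kept nuclei and 8849 nuclei in all 4 libraries. The 15% with the lowest slow share, 30 in animal 1 and 875 in animal 2, served as fast nuclei for comparison.

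The series holds single-nucleus RNA sequencing of subcutaneous backfat and intramuscular fat from 2 beef steers, with 1 library per animal and depot. The animals came from a commercial feedlot and had no experimental treatment, and per the labels their age and breed are unknown. Muscle nuclei were found in the libraries labelled subcutaneous alone: 22.4% of nuclei in animal 1 and 95.2% in animal 2 were kept by the 30-UMI limit. Whether the depot labels of the libraries are right was not tested, so subcutaneous and intramuscular here mean the labels. In the libraries labelled intramuscular 0 of 1777 and 0 of 63 nuclei were kept, which allows shares of up to 0.169% and 4.76%, and the highest S+F there was 7 and 3 UMIs. The deposited cell barcodes shared between the 2 subcutaneous libraries numbered 1.

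Skeletal muscle fibres are long cells with many nuclei, and each fibre builds its contractile filaments from either slow or fast forms of the same proteins. Slow, or type I, fibres use the slow myosin heavy chain MYH7 with slow troponins and light chains, take up calcium with a slow pump, and burn fat and glucose in mitochondria. Fast fibres use MYH2 (type IIA) or MYH1 (type IIX) and draw more on glycogen and glycolysis. Some fibres carry a mixture of these forms.

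The 2 animals differed in how the slow share was spread over the kept nuclei. In animal 1 the nuclei lay at both ends, with 66 of 197 below 0.05 and 65 at 0.8 or above. In animal 2 the slow share had one peak near 0 and a long tail, with 2281 of 5834 nuclei below 0.05 and 16 at 0.8 or above. The fixed 5% therefore took nuclei of unlike purity. Slow nuclei had slow shares of 0.980 to 1 in animal 1 (median 0.983), and of 0.432 to 0.863 in animal 2 (median 0.575). The last slow nucleus held 198 slow and 4 fast UMIs in animal 1, and the next one, left out, held 242 and 5. In animal 2 the last one inside held 16 slow and 21 fast UMIs and the next one held 28 and 37. At the other end, the last fast nucleus held 4 slow and 164 fast UMIs in animal 1 and the next one 2 and 82, and the same pair held 4 and 167 and 3 and 125 in animal 2.

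**Figure D1:**
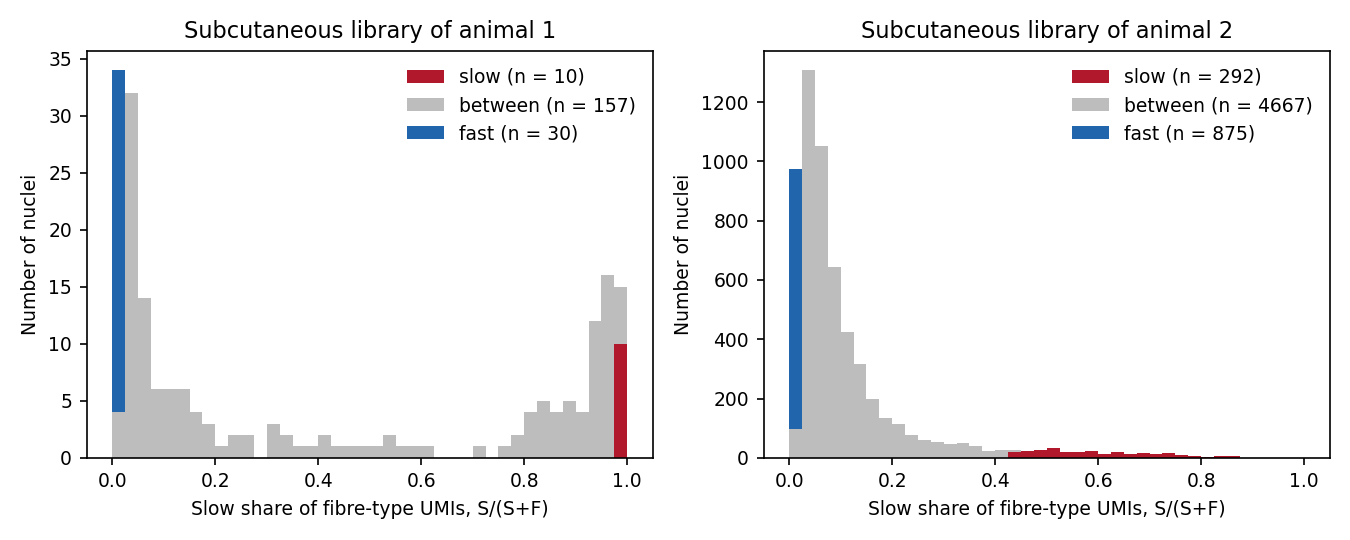
Number of kept nuclei (vertical axis) by slow share S/(S+F) (horizontal axis) in the subcutaneous library of each animal, with slow nuclei in red, fast nuclei in blue and the rest in grey. The 10 slow nuclei of animal 1 lie at the right edge, at 0.980 or above, and the 292 of animal 2 spread from 0.432 to 0.863.

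The slow genes that chose the nuclei are described here without a test. Levels are UMIs summed over the nuclei of a class and given as CPM, counts per 1e6 UMIs of all genes other than these 15, so that the choice does not set the scale. MYH7 had 521 UMIs, or 50494 CPM (exact Poisson 95% interval 46251 to 55022), in the slow nuclei of animal 1 and 8527 UMIs, or 36800 CPM (36023 to 37590), in those of animal 2. In fast nuclei MYH7 had 391 and 866 CPM. Single slow nuclei held 20 to 94 MYH7 UMIs in animal 1 (median 45.5) and 1 to 155 in animal 2 (median 21), so that all 302 had at least 1. MYL2, the slow regulatory light chain, had 54177 and 29282 CPM in slow nuclei of animals 1 and 2 and 729 and 922 CPM in fast ones.

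The 3 slow troponins, which bind calcium and switch the filament on, followed the same order. TNNC1, the calcium-binding subunit, had 20450 and 15826 CPM in slow nuclei against 547 and 660 CPM in fast nuclei. TNNT1, which ties the complex to tropomyosin, had 16379 and 14967 CPM against 208 and 427 CPM. TNNI1, the inhibitory subunit, had 7850 and 2270 CPM against 52.1 and 79.6 CPM. The slow tropomyosin gene TPM3 had 12406 and 8709 CPM against 234 and 297 CPM, and the light chain gene MYL6B had 8916 and 2788 CPM against 52.1 and 88.6 CPM. For these 7 genes the slow and fast classes did not overlap, as the choice of nuclei requires.

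MYL3, an essential light chain shared with the heart, was the exception among the 8. It had 224 UMIs (967 CPM) in slow nuclei of animal 2 and 16 UMIs (28.9 CPM) in fast ones. In animal 1 it had 0 UMIs in both classes, where 3 counts would be 291 CPM in slow and 78.1 CPM in fast nuclei. The slow-nucleus level in animal 1 relative to animal 2 was thus 0, with an exact upper limit of 0.373. The other slow genes also differed between the animals, each of which gave 1 library, so that these ratios cover counting error only. The level in animal 1 was 3.46 times that in animal 2 for TNNI1 (95% interval 2.70 to 4.38), 3.20 times for MYL6B (2.54 to 3.98), 1.85 times for MYL2 (1.69 to 2.02) and 1.09 times for TNNT1 (0.932 to 1.28). Among these intervals, only that of TNNT1 took in a ratio of 1. The slow nuclei of the animals also differed in slow share (medians 0.983 and 0.575), and its part in these ratios was not tested.

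**Figure D2:**
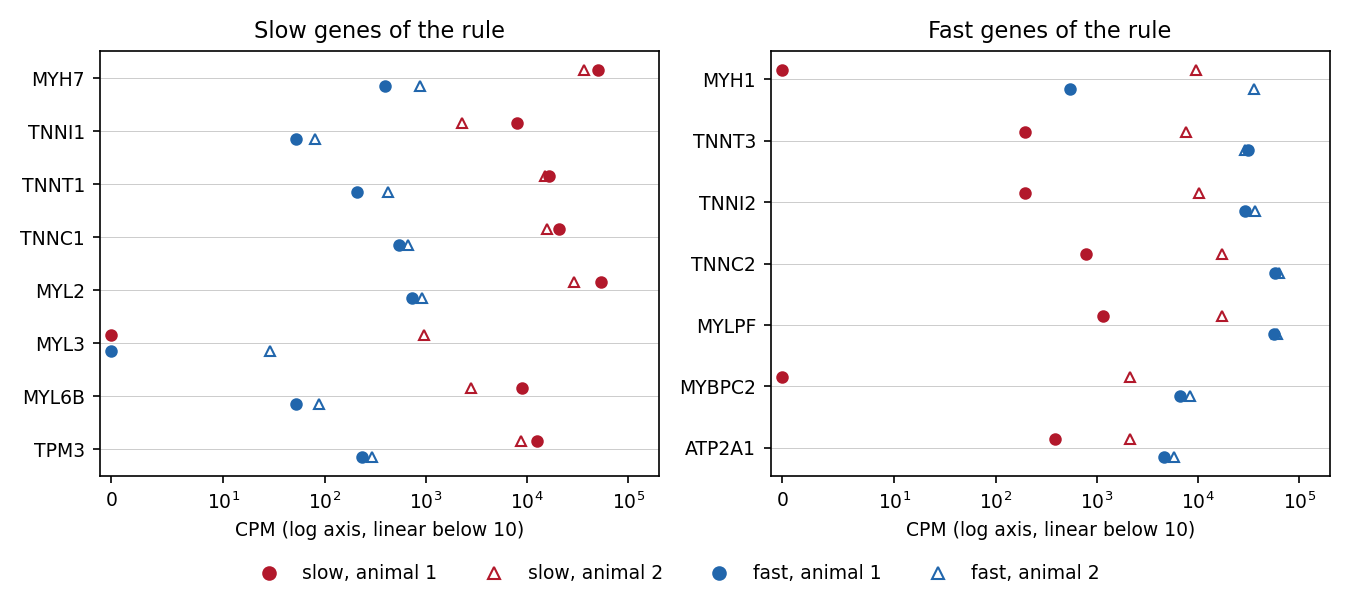
Levels in CPM (log axis, linear below 10) of the 8 slow genes (left) and the 7 fast genes (right) that chose the nuclei, in slow nuclei (red) and fast nuclei (blue) of animal 1 (filled circles) and animal 2 (open triangles). Fast genes are at 0 to 1163 CPM in slow nuclei of animal 1 and at 2106 to 17379 CPM in those of animal 2.

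Fast genes were nearly absent from the slow nuclei of animal 1 and present in those of animal 2. In animal 1 the 7 fast genes took 0.231% of all UMIs of slow nuclei, with 0 UMIs for MYH1 and for MYBPC2, a fast myosin-binding protein, and 2 UMIs for each of the fast troponins TNNT3 and TNNI2. In animal 2 they took 5.62%, led by the fast troponin C gene TNNC2 at 17379 CPM and the fast regulatory light chain MYLPF at 17332 CPM. Fast nuclei held 15.7% and 19.2% in the same order.

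Muscle genes were also read in nuclei with at least 5 UMIs of blood endothelial markers, which numbered 150 in animal 1 and 125 in animal 2. Of these, 16 and 109 were themselves among the kept nuclei, with 6 slow and 7 fast nuclei in animal 2, so that in animal 2 they give no level for nuclei without muscle genes. The fast genes took 0.453% and 3.98% of their UMIs and the slow genes 0.452% and 0.618%. In slow nuclei the slow genes took 14.5% and 9.48%. Median depths were 900 and 664 UMIs in slow nuclei, 1292 and 653 in fast nuclei and 1195.5 and 1239 in endothelial-marker nuclei. Whether the fast UMIs of slow nuclei in animal 2 were free RNA or made in those nuclei was not tested. By the genes of the rule itself, the slow nuclei of animal 1 carried slow genes with hardly any fast ones, and those of animal 2 carried both.

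Markers of other cell types were not at 0 in slow nuclei, and only the endothelial list was set against nuclei chosen for its markers. The 12 endothelial markers summed to 582 and 708 CPM in slow nuclei and 365 and 331 CPM in fast nuclei, against 8060 and 7699 CPM in endothelial-marker nuclei. CDH5, KDR, TEK and 4 more of the 12 were at 0 in slow nuclei of animal 1, while none was at 0 in animal 2, where 6 slow nuclei held at least 5 UMIs of these markers. The 10 adipocyte markers summed to 1841 and 483 CPM in slow and 1355 and 242 CPM in fast nuclei, with ADIPOQ, LIPE, FASN and LEP at 0 in slow nuclei of animal 1. The 9 fibroblast markers summed to 2908 and 660 CPM against 2631 and 819 CPM. The 8 leukocyte markers summed to 388 and 237 CPM against 260 and 94.0 CPM. Of the 7 satellite cell markers, PAX7, CHRDL2, CDH15 and MYOD1 were at 0 in slow nuclei of animal 1 and CHRDL2, CALCR and CDH15 in those of animal 2. The 8 pericyte and smooth muscle markers summed to 291 and 514 CPM in slow and 208 and 427 CPM in fast nuclei. Endothelial-marker nuclei had 1889 and 178 CPM of the adipocyte and 4862 and 1339 CPM of the fibroblast markers. At least 3 UMIs of these lists together, satellite markers left out, were found in 9 of 10 slow nuclei of animal 1 and 49 of 292 of animal 2. The same held for 17 of 30 and 85 of 875 fast nuclei. The part of these RNAs in the results below was not tested, and doublets were not removed.

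Outside the 15 genes, slow nuclei carried more RNA for the slow calcium pump ATP2A2, its brake PLN and the Z-disc protein MYOZ2. They carried less for 11 of 26 tested genes of glycogen use, glycolysis and phosphocreatine. Among 8 tested fast-fibre genes they carried less for MYH2 and ACTN3. The comparison summed UMIs per library and class and asked which other genes differed between slow and fast nuclei of the same animal. Of 2228 genes tested, 63 (2.83%) had a Benjamini-Hochberg adjusted p under 0.05 in the quasi-likelihood test of edgeR, 42 higher (1.89%) and 21 lower (0.943%) in slow nuclei. By CPM the direction was the same in both animals for 61 of the 63. The slow and fast sums did not overlap for 57 of the 63, while over all genes tested 19.6% lay apart with slow nuclei higher and 14.6% with slow nuclei lower. Since nuclei were ranked by fibre-type genes, these calls describe which other genes follow that ranking. The test rests on 2 animals, 26 of the 63 genes had fewer than 10 UMIs in animal 1, 12 of the 42 higher genes passed the count filter (74.0 CPM in 2 sums) through the slow sums alone, and the number of calls ran from 0 to 78 over the alternatives. MYOZ2, PLN, ATP2A2 and LDHB were the 4 genes also called without pairing the classes by animal, and DESeq2, with 6 calls, had the same 4 and MYH2 and TPM1.

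Of 10 other genes tied to slow fibres, 8 could be tested and 7 were higher in slow nuclei, with a median log2 difference of 3.17 against 0.00 over all genes tested. Of the 7, MYH7B and MYOM3 passed the count filter through the slow sums alone, so that their being higher was a condition of their test. MYOZ2, a Z-disc protein of slow fibres, had 15 UMIs (1454 CPM) and 291 UMIs (1256 CPM) in slow nuclei of animals 1 and 2, against 1 UMI (26.0 CPM) and 47 UMIs (85.0 CPM) in fast ones. Both slow values lay far above both fast ones. Its log2 difference was 3.997 (SE 0.41, adjusted p = 6.76e-19), and its adjusted p ran up to 0.458 over the alternatives. PLN, phospholamban, the brake on the slow calcium pump, had 1163 and 1221 CPM against 52.1 and 77.8 CPM, a log2 difference of 3.94 (SE 0.41, adjusted p = 3.31e-18; up to 0.458). ATP2A2, the slow calcium pump itself, had 1357 and 1338 CPM against 182 and 70.5 CPM, a log2 difference of 3.81 (SE 0.41, adjusted p = 1.16e-17; up to 0.458), and 2.52 in animal 1 alone. In the slow nuclei the levels of pump and brake were nearly the same in both animals, while in fast nuclei both were low. ATP2A2 overlaps ANAPC7, PLN overlaps CEP85L and MYOZ2 overlaps LOC101906469 in the RefSeq gene table, so some of their UMIs may belong to those genes.

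The rest of the slow group was less abundant or less apart. CSRP3, a muscle LIM protein of the Z-disc, had 7560 and 2658 CPM in slow and 1745 and 691 CPM in fast nuclei, a log2 difference of 1.84 (SE 0.39). ANKRD2, a stretch-responsive ankyrin protein, had 388 and 380 CPM against 78.1 and 59.7 CPM (log2 difference 2.52, SE 0.52). MYOM3, an M-band protein, had 194 and 94.9 CPM against 52.1 and 21.7 CPM, from 2 and 22 UMIs in slow nuclei (log2 difference 2.00, SE 0.44). The ancient slow myosin gene MYH7B had 1 and 24 UMIs in slow nuclei and 0 and 1 in fast nuclei, a pooled ratio of 61.1 with a counting interval from 10.0 to 2508. MYBPC1, the slow myosin-binding protein, was tested and not called: it had 18027 and 10548 CPM in slow nuclei and 10628 and 5111 CPM in fast ones (log2 difference 0.72, SE 0.58, adjusted p = 0.805). It was higher in slow nuclei within each animal, and the classes met between animals.

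**Figure D3:**
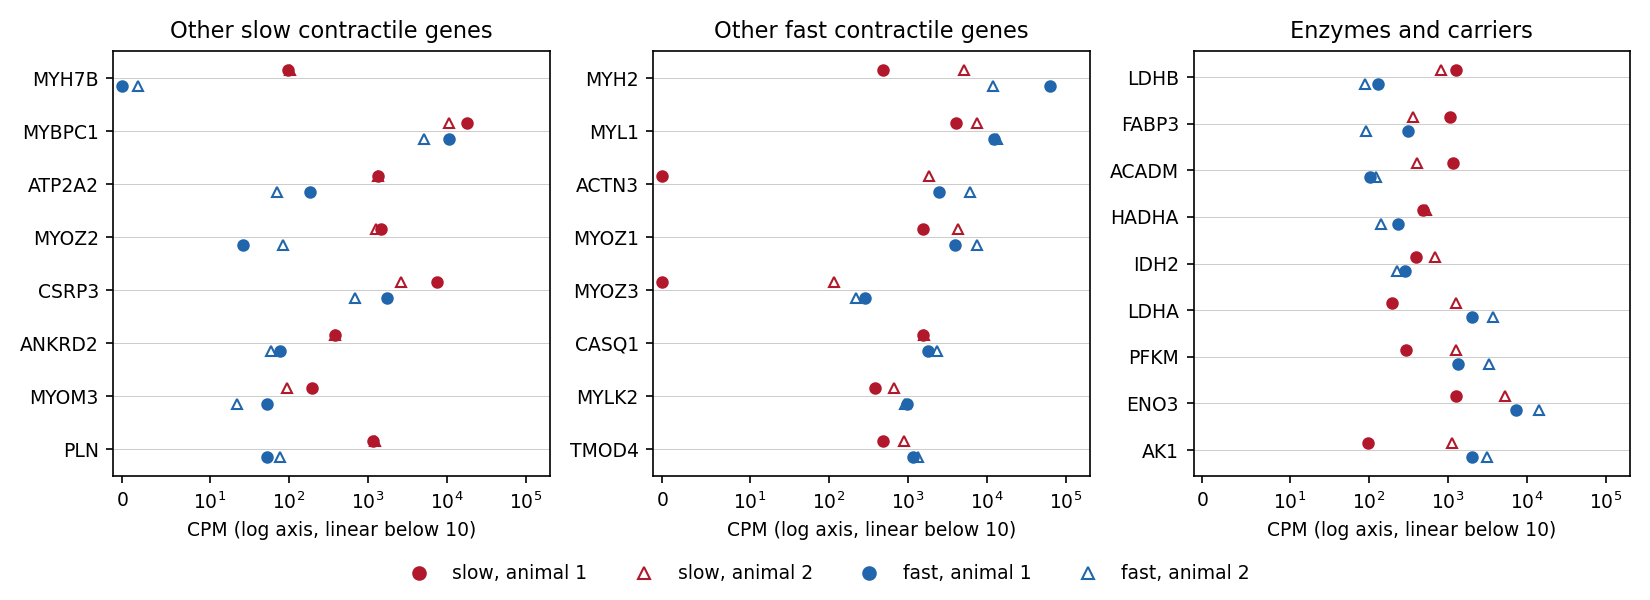
Levels in CPM (log axis, linear below 10) of genes outside the rule in slow nuclei (red) and fast nuclei (blue) of animal 1 (filled circles) and animal 2 (open triangles). MYOZ2, ATP2A2, PLN and LDHB are higher in both slow sums than in both fast ones, while ACTN3, LDHA and AK1 are lower in both.

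Of 10 other genes tied to fast fibres, 8 could be tested, all 8 had a negative log2 difference and 2 were called lower, with a median of -1.21. MYH2, the type IIA myosin, had 485 and 5196 CPM in slow nuclei and 62726 and 11806 CPM in fast nuclei. The animals were thus far apart in both classes, and the slow sums still lay below the fast ones (log2 difference -3.64, SE 0.94, adjusted p = 0.00714; up to 0.9998 over the alternatives). In animal 2 alone it was -1.23. In endothelial-marker nuclei MYH2 had 1338 and 2950 CPM, above the slow nuclei in animal 1 and below them in animal 2. ACTN3, the alpha-actinin of fast fibres, had 0 and 429 UMIs in slow nuclei (0 and 1851 CPM) and 95 and 3343 UMIs in fast nuclei (2475 and 6046 CPM), a log2 difference of -2.40 (SE 0.48, adjusted p = 9.83e-05). In animal 2 alone it was -1.75, and the larger fitted value rests on the 0 UMIs of animal 1. MYL1, MYOZ1, MYOZ3, CASQ1, MYLK2 and TMOD4 were not called, at -1.37 to -0.56. CASQ1, the calcium store protein of fast fibres, was close in all 4 sums, with 1551 and 1614 CPM in slow and 1797 and 2309 CPM in fast nuclei.

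The fast nuclei of the animals carried different fast myosins, which sets what the slow nuclei were compared with. In fast nuclei MYH1 had 547 CPM in animal 1 and 35612 CPM in animal 2, a ratio of 0.0154 (95% interval 0.00951 to 0.0235), while MYH2 in animal 1 was 5.31 times that in animal 2 (5.07 to 5.57). MYH1 and MYH2 are related genes, and how reads were split between them was not tested.

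A list drawn up as contractile genes of all fibres, in which TPM1 was counted, had a median of -0.27 over 14 tested of 19. In it 1 gene was called higher and 1 lower. TPM1, the alpha-tropomyosin, was the lower one, at 485 and 8221 CPM in slow nuclei and 18182 and 30595 CPM in fast nuclei (log2 difference -3.26, SE 0.76, adjusted p = 0.00175; -1.94 in animal 2 alone). XIRP2, an actin-binding protein of the sarcomere, was the higher one, at 2423 and 5352 CPM against 886 and 1805 CPM (1.37, SE 0.42, adjusted p = 0.0431). MYOM1, another M-band protein, had 1357 and 1364 CPM against 365 and 732 CPM and missed the threshold (1.04, SE 0.36, adjusted p = 0.0962).

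The subunits of lactate dehydrogenase differed between the classes in opposite directions. LDHB, the heart-type subunit that favours turning lactate to pyruvate, had 13 UMIs (1260 CPM) and 188 UMIs (811 CPM) in slow nuclei and 5 UMIs (130 CPM) and 49 UMIs (88.6 CPM) in fast ones. Its log2 difference was 3.10 (SE 0.38, adjusted p = 5.81e-13; up to 0.458 over the alternatives). LDHA, the muscle-type subunit, went the other way, with 194 and 1260 CPM in slow and 2006 and 3722 CPM in fast nuclei (-2.002, SE 0.42, adjusted p = 1.92e-04). LDHB exceeded LDHA in UMIs in slow nuclei of animal 1 (13 against 2) and not in those of animal 2 (188 against 292).

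Enzymes of glycogen use, glycolysis and phosphocreatine were called more often lower than higher in slow nuclei. Of 26 tested of 32 in that list, 11 were lower and LDHB alone was higher, with a median of -1.29. AK1, adenylate kinase, had 96.9 and 1109 CPM in slow and 2006 and 3073 CPM in fast nuclei (-1.999, SE 0.41). PFKM, the muscle phosphofructokinase, had 291 and 1260 CPM against 1355 and 3344 CPM (-1.67, SE 0.41). ENO3, the muscle enolase, had 1260 and 5278 CPM against 7216 and 14385 CPM (-2.05, SE 0.58). In animal 1 alone, where slow nuclei held few UMIs of them, AK1 had -4.62, PFKM -2.53, LDHA -3.67 and JSRP1, of the calcium release site, -3.71. In AK1, PFKM and ENO3 the slow sums were below the fast ones within each animal and across both. The others that passed, named after their values were seen, were PYGM, the glycogen phosphorylase, with PGM1, PHKA1, GPI, PGAM2, PKM and FBP2, at -1.58 to -1.27.

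Some genes that bring in and burn fatty acids were higher. Of 13 tested of 18, 5 were higher and 0 lower, with a median of 1.07, which was -0.03 in animal 1 alone and 1.24 in animal 2 alone. ACADM, the medium-chain acyl-CoA dehydrogenase, had 12 UMIs (1163 CPM) and 95 UMIs (410 CPM) in slow nuclei and 4 UMIs (104 CPM) and 68 UMIs (123 CPM) in fast ones (1.96, SE 0.39; 3.08 in animal 1 alone). FABP3, the fatty acid carrier of muscle, had 1066 and 358 CPM against 313 and 90.4 CPM (1.80, SE 0.39). HADHA, a subunit of the mitochondrial trifunctional protein, had 485 and 522 CPM against 234 and 141 CPM (1.64, SE 0.39; 0.70 in animal 1 alone). Its partner HADHB and the lipid droplet protein PLIN5, both named after their values were seen, were the other 2, with 1.64 (SE 0.39) and 2.32 (SE 0.40). PLIN5 had 1 and 3 UMIs in slow and fast nuclei of animal 1, where its difference alone was -0.03.

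Respiratory chain and citrate cycle genes had smaller differences, mostly positive. IDH2, the mitochondrial isocitrate dehydrogenase, was the 1 of 25 tested that was called, at 388 and 686 CPM in slow and 287 and 224 CPM in fast nuclei (1.33, SE 0.36, adjusted p = 0.0140; 0.0956 in animal 1 alone). The median was 0.47, with 0.0956 in animal 1 alone and 0.52 in animal 2 alone. A positive difference was found in 22 of 25, and in 1105 of 2228 genes tested. CYCS, cytochrome c, had 0.94 (SE 0.35) and UQCRC2, a subunit of complex III, had 1.13 (SE 0.41), neither past the threshold.

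Transcripts made inside mitochondria took a larger share of UMIs in slow nuclei of both animals. Mitochondrially encoded genes took 2.78% and 3.54% of UMIs in slow nuclei, 1.56% and 1.40% in fast nuclei and 2.02% and 1.68% in all kept nuclei. Of 12 tested genes all 12 had a positive difference, with a median of 0.76, which was 0.31 in animal 1 alone and 1.19 in animal 2 alone. ND2 and ND5, subunits of complex I, were called (1.13, SE 0.34, adjusted p = 0.0404, and 1.37, SE 0.38, adjusted p = 0.0160). In a preparation of nuclei such transcripts come from outside the nucleus and serve as a measure of its cleanness, and their part in the other differences was not tested. Leaving out nuclei of 10% or more of such UMIs kept 194 of 197 nuclei in animal 1 and 5832 of 5834 in animal 2. The slow class, a fixed 5%, numbered 10 and 292 by that share, so these numbers say nothing of its stability. In animal 2 both nuclei left out were slow ones, and the next in rank took their place. With this limit 40 genes were called, 29 higher and 11 lower.

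**Figure D4:**
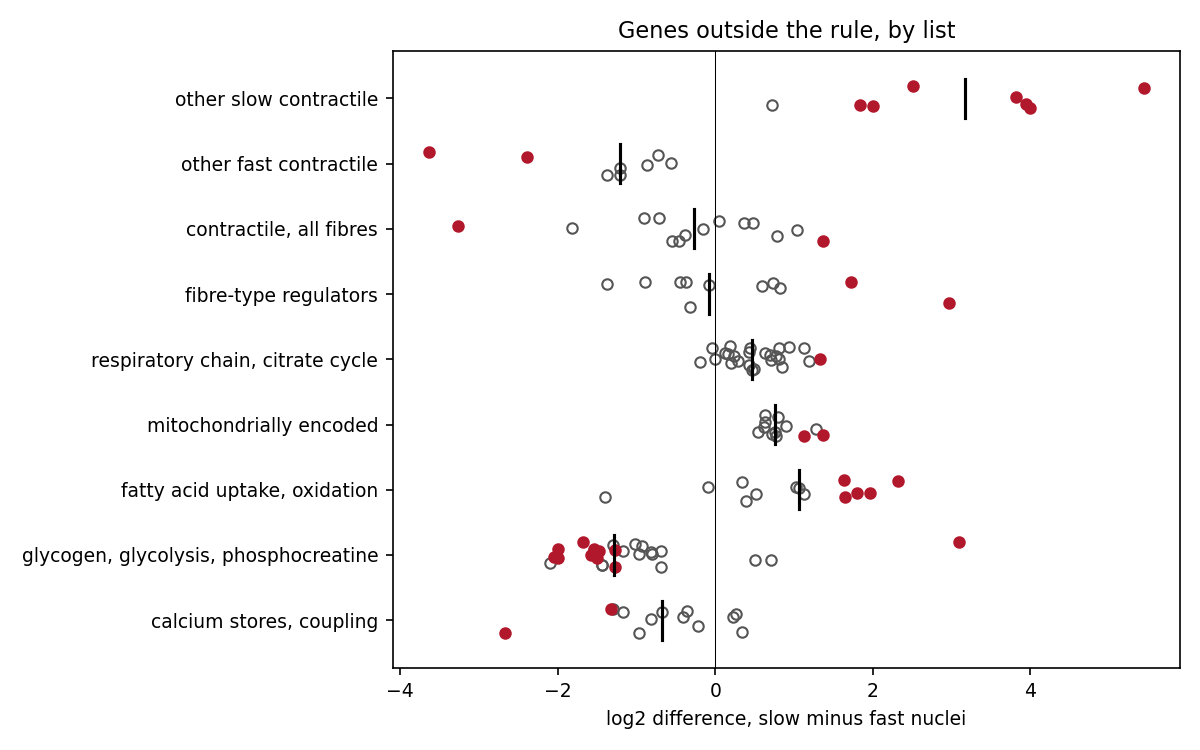
Log2 difference of slow minus fast nuclei (horizontal axis) for each tested gene outside the rule, by gene list (vertical axis), with genes past edgeR's adjusted p of 0.05 filled in red, the rest open, and the median of each list as a black bar. The medians run from -1.29 for glycogen, glycolysis and phosphocreatine to 3.17 for the other slow contractile genes.

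Among regulators of fibre type, 11 of 26 could be tested and 2 were higher, with a median of -0.08, which was -0.73 in animal 1 alone and -0.0445 in animal 2 alone. PPARGC1A, a coactivator that drives mitochondrial genes and slow fibres, had 2 and 19 UMIs in slow nuclei (194 and 82.0 CPM) and 0 and 6 UMIs in fast nuclei (0 and 10.9 CPM), a log2 difference of 2.97 (SE 0.43, adjusted p = 4.91e-05; up to 0.9998). In all kept nuclei PPARGC1A had 105 and 62.9 CPM, in animal 2 nearer the slow than the fast nuclei. Its log2 difference ran from 0.41 to 3.98 over the alternatives. RCAN1, an inhibitor and target of calcineurin, the calcium-driven phosphatase linked to slow fibres, had 1 and 29 UMIs against 0 and 21 UMIs (1.73, SE 0.47, adjusted p = 0.0148). In animal 1 both calls rested on 1 or 2 UMIs in slow nuclei, and both genes passed the count filter through the slow sums alone, so their calls do not stand apart from that filter. SOX6, a repressor of slow genes, had 0 and 8 UMIs in slow and 4 and 45 UMIs in fast nuclei (-1.37, SE 0.54, adjusted p = 0.192). MEF2C, a muscle transcription factor, had 194 and 423 CPM against 208 and 423 CPM (-0.08, SE 0.37), and MYF6, a factor kept on in mature fibres, had 291 and 453 CPM against 625 and 523 CPM (-0.45, SE 0.36). The others tested, EPAS1, ESRRA, EYA4, MEF2A, MEF2D and VGLL2, ran from -0.90 to 0.82 without a call. MYOD1, MYOG, NFATC1, TBX15 and TEAD1 were below the count filter, with 10, 14, 4, 8 and 13 UMIs in the slow nuclei of both animals.

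Oxygen storage genes were not called. MB, the myoglobin that gives slow muscle its colour, had 148 UMIs (14344 CPM) and 2214 UMIs (9555 CPM) in slow nuclei and 367 UMIs (9560 CPM) and 3229 UMIs (5840 CPM) in fast ones, a log2 difference of 0.46 (SE 0.56, adjusted p = 0.896). Within each animal slow nuclei had more, and the slow sum of animal 2 lay level with the fast sum of animal 1. CA3, the muscle carbonic anhydrase, had 9401 and 6409 CPM against 7164 and 2405 CPM (0.74, SE 0.51). VEGFB had 0 and 26 UMIs in slow nuclei and was not called (0.68, SE 0.54), and VEGFA, with 0 and 34 UMIs, was below the count filter.

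Calcium handling beyond the slow pump and its brake had 2 of 13 tested genes called lower and a median of -0.68, which was -1.36 in animal 1 alone and -0.35 in animal 2 alone. SLN, sarcolipin, a small inhibitor of the calcium pump, had 0 and 582 UMIs in slow nuclei (0 and 2512 CPM) and 152 and 4669 UMIs in fast nuclei (3959 and 8444 CPM), a log2 difference of -2.67 (SE 0.54, adjusted p = 9.83e-05). In animal 2 alone it was -1.79, and the larger fitted value rests on the 0 UMIs of animal 1. JSRP1, a protein of the calcium release site, had 96.9 and 807 CPM against 1068 and 1526 CPM (-1.33, SE 0.38, adjusted p = 0.0216). CACNG1, a calcium channel subunit, had -1.17 (SE 0.37) and missed the threshold (adjusted p = 0.0531). PLN, the brake on the slow pump, was thus higher in slow nuclei and SLN was lower.

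Genes of the nerve and tendon junctions and of regenerating fibres were sparse, with 2 of 17 tested. CHRNA1, an acetylcholine receptor subunit, had 1 and 20 UMIs in slow and 0 and 5 UMIs in fast nuclei (3.21, SE 0.43, adjusted p = 1.88e-05; up to 0.9998). It passed the count filter through the slow sums alone. NES, nestin, had 0.25 (SE 0.39) without a call. Of 11 genes of protein breakdown and growth control 4 were tested and 0 called: in edgeR FBXO32, a ubiquitin ligase of muscle wasting, had -0.12 (SE 0.35), PRKAA2, a kinase of energy sensing, 0.70 (SE 0.54), and its partner PRKAG3 -1.21 (SE 0.57, adjusted p = 0.357). Among markers of other cell types 1 gene was called, GPAM, an enzyme of triglyceride synthesis, with 2 and 15 UMIs in slow and 3 and 7 UMIs in fast nuclei (2.00, SE 0.42, adjusted p = 0.0155; 0.93 in animal 1 alone). Its slow and fast sums overlapped. Tested were 5 adipocyte, 6 fibroblast, 3 pericyte and smooth muscle, 2 endothelial, 1 satellite and 1 leukocyte markers. Over all genes 63 of 2228 tested (2.83%) were called.

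Some of the largest differences lay outside these lists. PDLIM1, a PDZ and LIM protein bound to alpha-actinin, had 3 and 110 UMIs in slow nuclei (291 and 475 CPM) and 0 and 30 UMIs in fast ones (0 and 54.3 CPM), a log2 difference of 3.18 (SE 0.53, adjusted p = 6.40e-07). It passed the count filter through the slow sums alone, and had 307 and 356 CPM in endothelial-marker nuclei. LMCD1, a LIM-domain transcriptional cofactor, had 582 and 596 CPM against 52.1 and 146 CPM (2.10, SE 0.39), and 275 and 376 CPM in endothelial-marker nuclei. HSPB7, a small heat shock protein of heart and muscle, had 1066 and 639 CPM against 208 and 145 CPM (2.08, SE 0.36), with 25.6 and 64.2 CPM in endothelial-marker nuclei. On the lower side, CST6, a cystatin, had 96.9 and 168 CPM in slow and 391 and 792 CPM in fast nuclei (-2.28, SE 0.41, adjusted p = 8.97e-06).

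Over the whole range of the slow share, the levels of genes outside the rule are described for animal 2 without a test. ATP2A2 went from 108 CPM in the 2281 nuclei below 0.05 to 403 CPM at 0.1 to 0.2, 901 CPM at 0.2 to 0.4, 1266 CPM at 0.4 to 0.6 and 1322 CPM at 0.6 to 0.8. MYOZ2 went from 111 to 252, 620, 1005 and 1384 CPM in the same bins, and LDHB from 101 to 194, 296, 598 and 940 CPM. ATP2A2 was thus near its highest level in the 200 nuclei at 0.4 to 0.6, whereas MYOZ2 and LDHB were still higher in the 108 nuclei at 0.6 to 0.8. ACTN3 went from 5772 to 1622 CPM and SLN from 7667 to 2221 CPM between the same ends. The 16 nuclei at 0.8 or above, too few to carry a trend, had 1415 CPM of ATP2A2, 1915 CPM of MYOZ2 and 624 CPM of SLN. In animal 1 the 65 nuclei at 0.8 or above had 1183 CPM of ATP2A2, 864 CPM of MYOZ2 and 1231 CPM of LDHB, and the 66 nuclei below 0.05 had 136, 67.9 and 136 CPM. Each bin between 0.1 and 0.8 held fewer than 20 nuclei in animal 1.

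**Figure D5:**
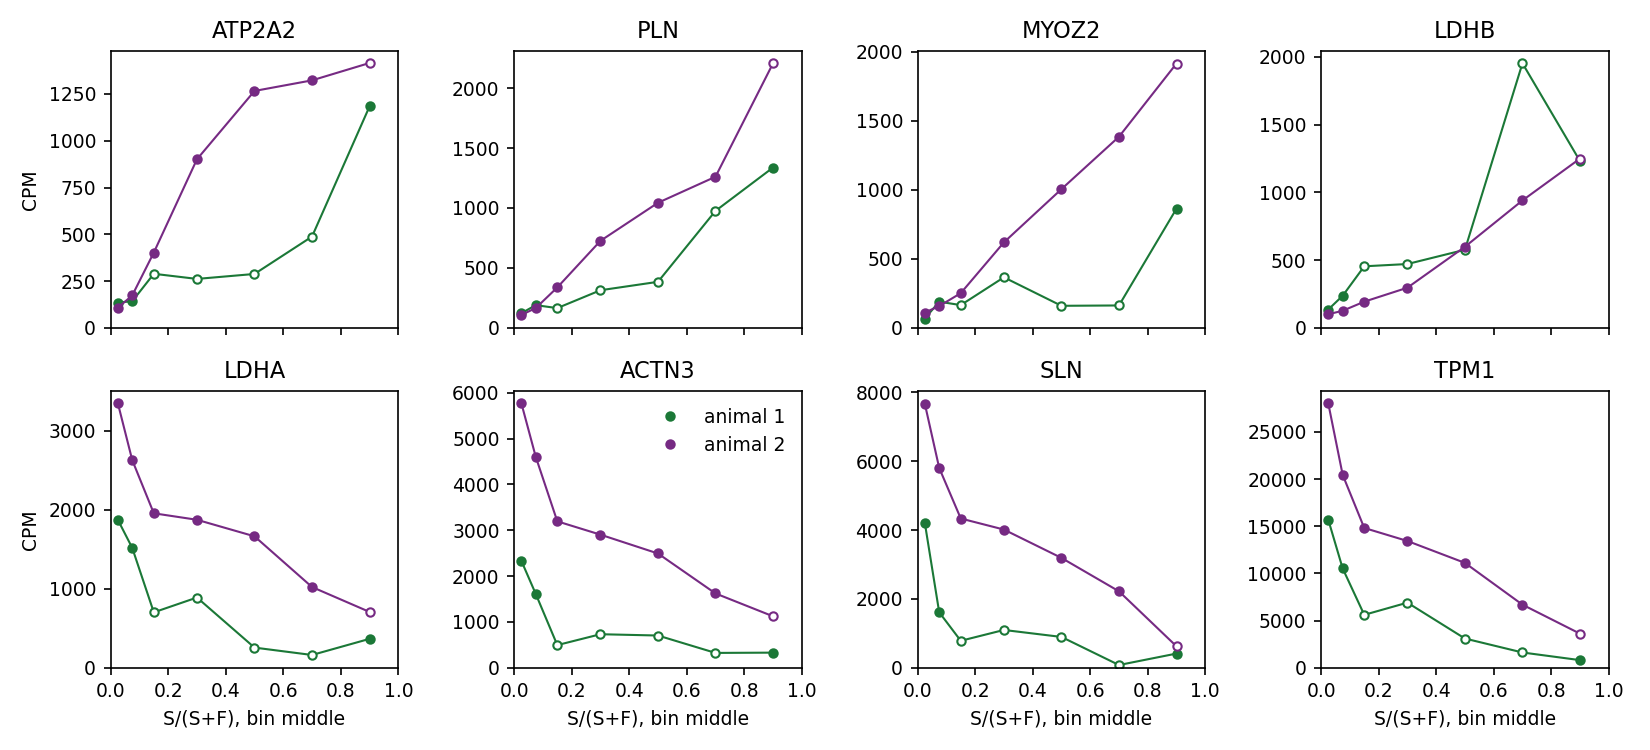
Levels in CPM (vertical axis, each from 0) of 8 genes outside the rule by slow share S/(S+F) in 7 bins (horizontal axis, bin middle) in animal 1 (green) and animal 2 (purple), with open points for bins of fewer than 20 nuclei. In animal 2, over the bins of at least 20 nuclei, ATP2A2, PLN, MYOZ2 and LDHB are higher toward the right, and LDHA, ACTN3, SLN and TPM1 are lower.

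Slow nuclei were also set against all kept nuclei of their library, of which they are part. ATP2A2 had 526 and 333 CPM in all kept nuclei and PLN 601 and 301 CPM, each below the slow nuclei. Other called genes did not stand as far apart. GPAM had 165 and 62.3 CPM in all kept nuclei against 194 and 64.7 CPM in slow ones. FABP5 had 782 and 207 CPM against 96.9 and 350 CPM. With all other kept nuclei as the comparison, edgeR called 15 genes, 6 higher and 9 lower in slow nuclei, and 12 of the 63 genes were among them. The 5% of nuclei next in rank had median slow shares of 0.975 in animal 1 and 0.325 in animal 2. That next group had 13.8% of UMIs in slow genes in animal 1, against 14.5% in the slow nuclei, and 4.61% in animal 2, against 9.48%.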

How the data were processed

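The authors deposited raw UMI counts per gene and barcode, 1 matrix per library, made with Cell Ranger 6.0.1 per the file headers. ARS-UCD1.2 is the genome build in the submitters' processing notes. Which annotation was used, and how intronic reads and strand were counted, was not stated in the labels or headers. The 2 subcutaneous libraries held 1143166 and 4009437 UMIs in nuclei with at least 200 genes, and the intramuscular ones 2719366 and 105481. Of the 302 slow nuclei, those of animal 1 held 12107 UMIs and those of animal 2 held 272917.

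The members, gene lists and tests were chosen with earlier results of these data known. UMIs were summed per library and class over the nuclei chosen as given in the report, with ties in the slow share broken by the higher S+F. The 15 genes of the rule were left out of the test and of library sizes. Slow and fast sums were compared with edgeR 4.0.16 in R 4.3.3 (filterByExpr, TMM, quasi-likelihood F test), with the animal as a block because both classes come from the same library. Adjusted p-values are Benjamini-Hochberg over all 2228 genes tested. With 4 sums and the block, 1 residual degree of freedom was left per gene. The SE is the absolute log2 difference over the square root of F. For genes with few UMIs, such as PLIN5, it is smaller than their p-value implies and does not cover counting error. CPM of rule genes carry exact Poisson 95% intervals, which cover counting error only, as do ratios between animals. No doublet caller was run.

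Named were the 15 rule genes, and up to 10 called genes per direction with the largest difference, the same direction in both animals and at least 200 CPM. Also named were members of 4 lists with at least 20 UMIs (other slow, other fast, regulators, oxygen), and 3 members of each other list with the smallest p. Some genes that this rule names are not reported here. The list of mitochondrially encoded genes was added after the files were seen. Alternatives covered the block, DESeq2 1.42.0, scaling, filters, limits on nuclei and the comparison nuclei. Overlaps with other genes were read from the RefSeq table of ARS-UCD2.0, another assembly, so no coordinates are given. Of the named genes 31 overlap another gene there.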

Additional observations from a re-analysis of the deposited data

How the results depend on the processing

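The number of genes called between slow and fast nuclei depended strongly on the settings, while directions mostly did not. Against 63 calls (42 higher, 21 lower), a limit of 20 UMIs on S+F gave 5 (5 and 0) and 50 UMIs gave 29 (21 and 8). Taking 10% as slow gave 3 (3 and 0) and 15% gave 1 (1 and 0). At least 500 genes per nucleus gave 20 higher and 32 lower, the mitochondrial limit 40 with 11 lower, and all other kept nuclei as comparison 15 (6 and 9). Without the replicate block, that is with classes not paired by animal, 4 genes were called (4 and 0). DESeq2 called 6 (4 and 2), and its median over all genes was -0.14. RLE scaling gave 42 higher and 36 lower. With only genes seen in all 4 sums and no other filter, edgeR called 0 (0 and 0), with 241 at an unadjusted p under 0.05, against 250 in the main result and 48 in DESeq2. The same slow share in both animals (at least 0.8 and at most 0.05), chosen after seeing the data, gave 26 with 9 higher. The cause of these shifts was not tested.

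Of the 63 genes, 60 could be tested with the 20-UMI limit and all 60 kept their direction. The exceptions were with all other kept nuclei (61 of 63) and with 15% as slow (62 of 63). With both animals in the fit, the called genes whose signs turned were GPAM (-0.0026) and FABP5 (-0.16) with all other kept nuclei. NOVA1 (0.16) turned with 15% as slow, and it and FABP5 were named after their values were seen. Among named genes not called, signs turned with all other kept nuclei for ACTA2 (-0.45), CLDN5 (-0.53), EGFL7 (-0.28), EPAS1 (-0.30), MYF6 (0.0352) and MYH11 (-1.19). With 15% as slow they turned for ABCC9 (0.39), MEF2A (0.27), MEF2C (0.39), MEF2D (0.0278) and SOX6 (0.19), and with 10% for MEF2A (0.0778). The 20-UMI limit turned ACTA2 (-0.0081), COL3A1 (0.63) and MYH11 (-0.10), and 50 UMIs COL3A1 (0.0779). NES turned with 500 genes (-0.56) and with equal slow shares (-0.0914), MEF2C without the replicate block (0.0166) and VEGFB in DESeq2 (-0.13). Leaving out 1 animal leaves a difference without a test, so no count is given: LDHB was 2.89 in animal 1 and 3.08 in animal 2, and PLN 4.01 and 3.85. All 33 called genes that the naming rule gave had the same sign in each animal alone, which that rule required of its largest differences. Among other called genes, SLC40A1 (-4.40), RARRES2 (-0.42), NRP1 (-0.03) and PLIN5 (-0.03) turned in animal 1 alone. These values are after TMM scaling, and by CPM NRP1 and PLIN5 did not turn. Of the 33, 16 moved by over 1.5 times in 1 animal, mostly in animal 1 with its few UMIs. Leaving out nuclei with markers of other types left 2 slow nuclei in animal 1, so that test was not run.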
